A study of Rattus norvegicus with 8 samples.

Results

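The insulin-like growth factor (IGF) system was examined in neurons of the rat hippocampus 24 hours after traumatic brain injury. Its members were taken by name: the ligands Igf1 and Igf2, the receptor Igf1r and the binding proteins Igfbp2, Igfbp3, Igfbp4, Igfbp5 and Igfbp6. Every probe that the array design assigns to one of these names was read, whatever its signal. This gave 8 genes of 12487 named on the array, and 14 of its 41012 probes.

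The animals were male Sprague-Dawley rats whose age is not given in the sources used here. Naïve rats were killed with no treatment. Sham-injured rats were operated on without the injury, and injured rats received a moderate fluid percussion injury, in which a pulse of fluid strikes the exposed dura. All tissue was taken at 24 hours. Neurons of the CA3 field, a layer of large pyramidal neurons that is vulnerable to this injury, were cut out by laser capture on the side of the injury. In injured rats, neurons stained by Fluoro-Jade, a dye for degenerating neurons, formed the dying group, and unstained neurons formed the surviving group. Each pool of dying or surviving neurons held about 600 neurons from several rats, and the size of the sham and naïve pools is not given in the sources used here. The RNA was amplified, and each of the 4 groups had 2 arrays. The study calls the replicates of dying and surviving neurons biological. Surviving neurons were taken next to dying ones, so both groups drew on the same injured brains, but which pools shared rats is not given in the sources used here. The p-values treat the pools as independent and measure the spread between them, which may be partly technical.

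Igf1 and Igf2 are small secreted proteins related to insulin. Both activate the receptor tyrosine kinase encoded by Igf1r, which signals through insulin receptor substrates, PI3 kinase and Akt and is known to favour the survival of neurons. The binding proteins are secreted carriers that hold the ligands outside cells and can limit, prolong or localize their action. In the adult brain, Igf2 is made mainly by the meninges and choroid plexus, and Igf1 is made by some neurons and by activated microglia.

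Levels are given as log2 of the processed signal over the median of the array, so that 0 is the middle probe of an array and a step of 1 is a doubling. The median signal before this scaling was 19.2 and 52.6 in dying, 52.2 and 48.2 in surviving, 16.5 and 16.4 in sham and 27.2 and 22.7 in naïve neurons. A probe was called well above background where the deposited mark said so for most of its spots. On that scale, the lowest probe well above background lay at -1.35 and -2.07 in dying, -2.30 and -1.63 in surviving, -0.30 and -0.15 in sham and -0.77 and -0.81 in naïve neurons. A probe was tested where it was so on both arrays of either group compared, which lets in a probe that is dim in the other group because it is high in the first. This mark was present throughout for 10 of the 14 probes, on each of the 8 arrays, and they covered every member but Igfbp5.

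Dying replicate 1 stood apart from the other arrays. Its log2 signals correlated with those of dying replicate 2 at r = 0.876 across probes, while dying replicate 2 correlated with the surviving replicates at r = 0.927 and r = 0.928. Probes are not independent replicates, and the correlations are descriptive. Differences of member probes between surviving and dying neurons are therefore given with both dying arrays and without dying replicate 1, as are the calls against sham. The surviving and dying arrays lay on 1 slide and the sham and naïve arrays on another, so an effect of injury cannot be told apart from one of the slide in any comparison with sham.

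The capture was checked against marker genes. The pyramidal neuron markers Slc17a7, Camk2a, Grik4 and Nrgn were well above background on all arrays, except Grik4 on dying replicate 1, and Neurod6 had no probe. Grik4, a kainate receptor subunit enriched in CA3, lay at -1.07 on dying replicate 1 and at 4.97 on dying replicate 2. The summed signal of this list, over the array median, was 2965 and 2961 in dying, 5351 and 5586 in surviving, 8653 and 7802 in sham and 4682 and 6742 in naïve neurons, most of it from the probe of Nrgn. Of 9 markers of microglia and macrophages, 6 were also well above background on each of the 8 arrays. The summed signal was 1954 and 1065 in dying, 307 and 339 in surviving, 264 and 242 in sham and 127 and 253 in naïve neurons, so both dying pools exceeded the other 6. Fewer cells of a type and less RNA per cell cannot be told apart in such pools.

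**Figure D1:**
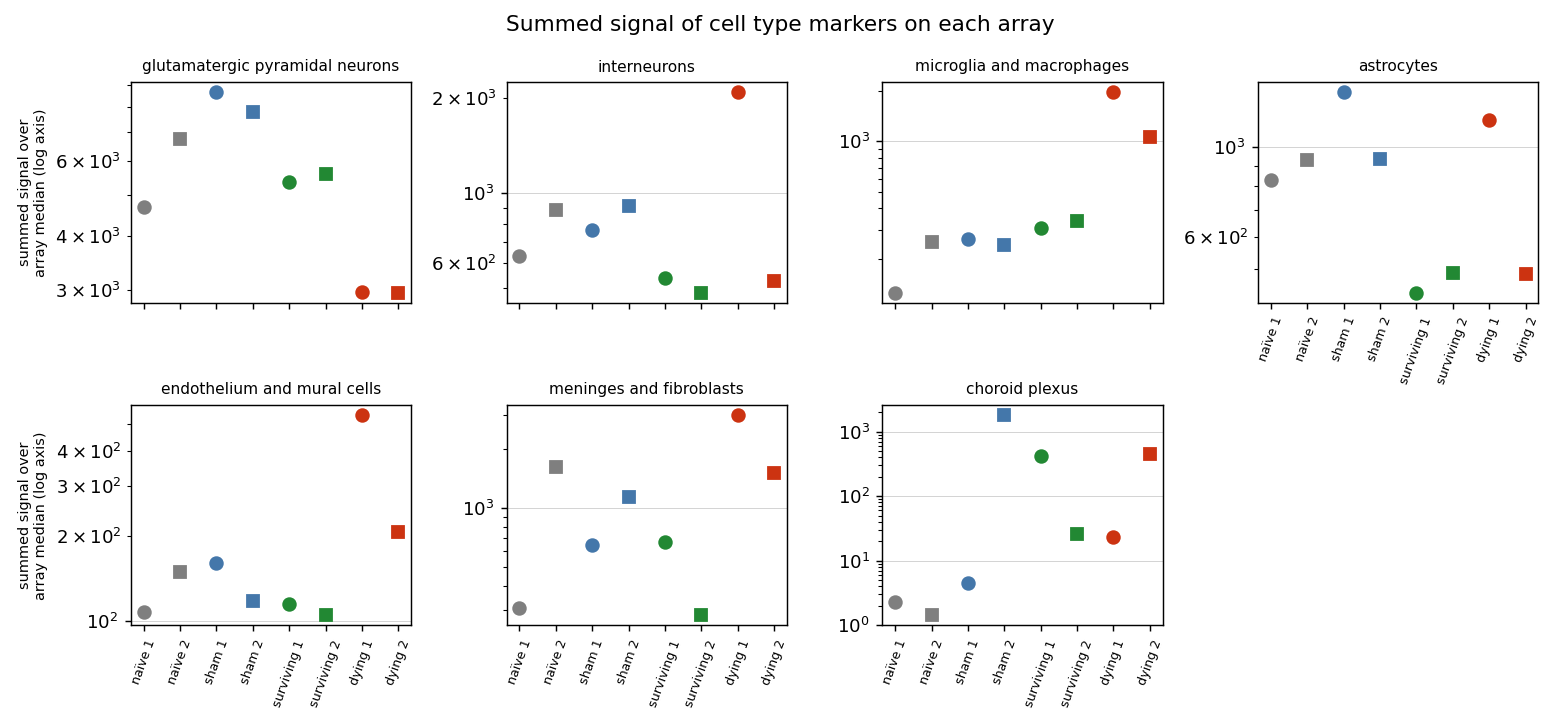
Summed signal of the marker lists on each array, as multiples of the array median on a log axis. Both dying arrays exceed the others for microglia and macrophages, and the choroid plexus list varies most between replicates in every group but naïve.

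**Figure D2:**
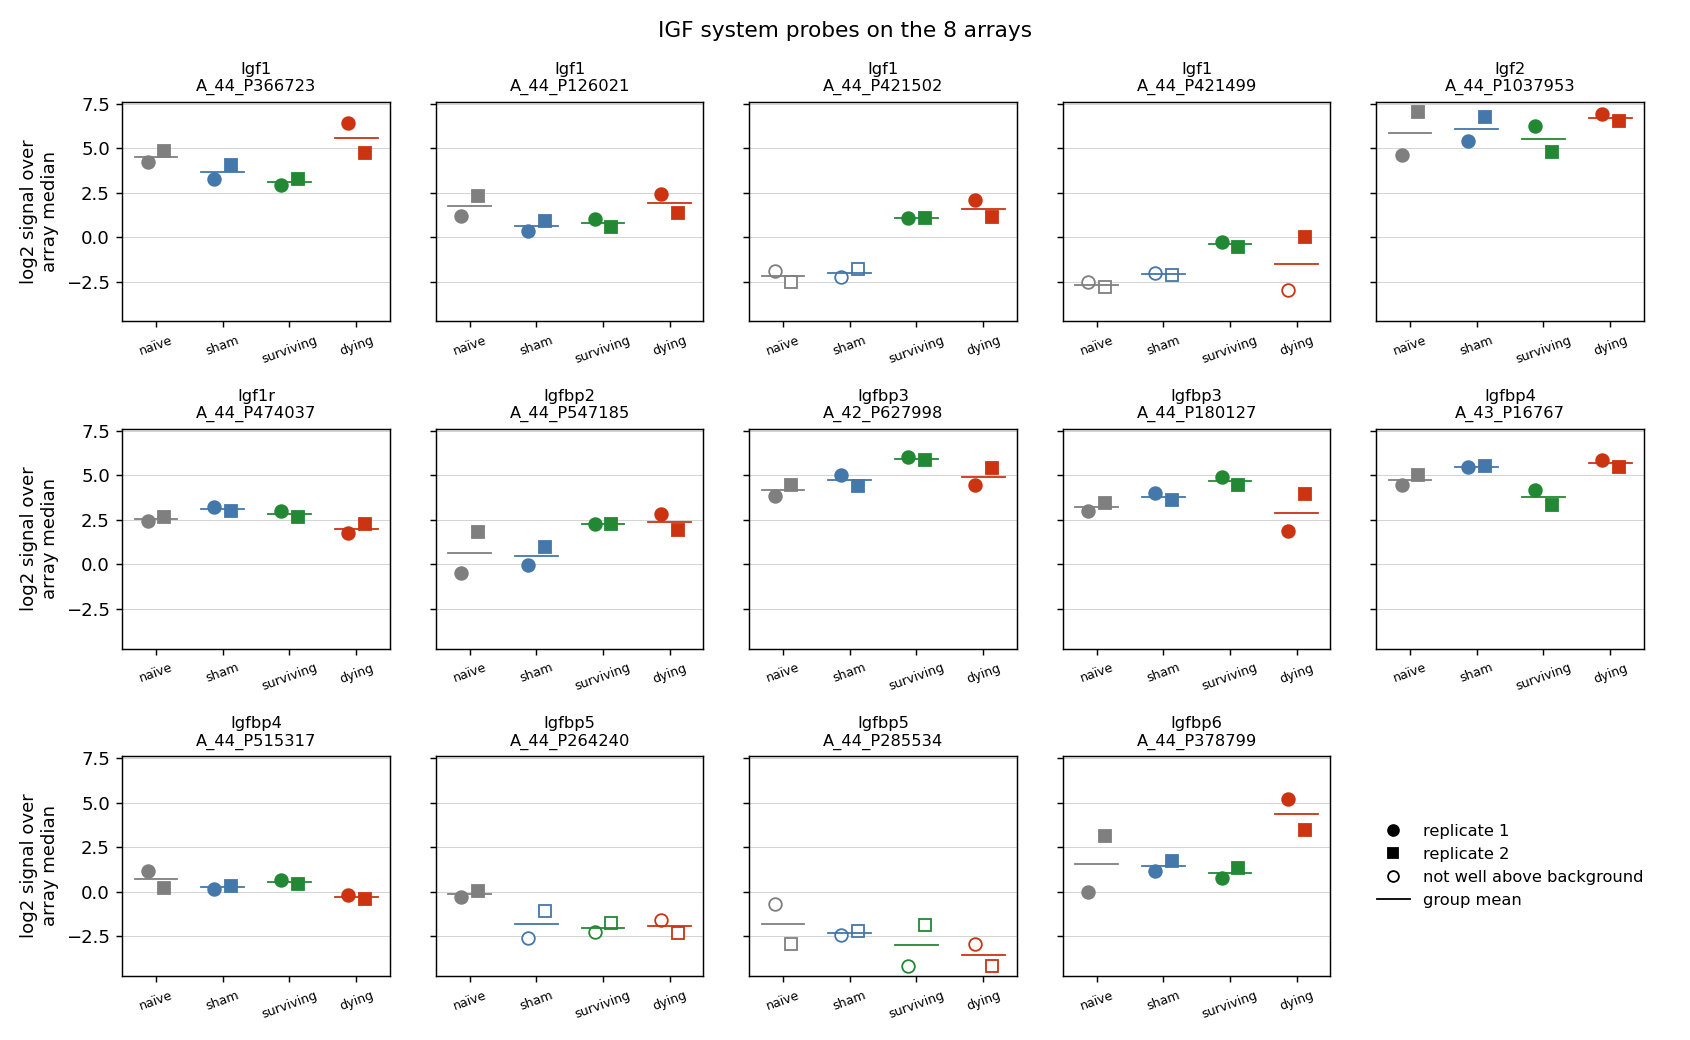
Log2 signal over the array median for each of the 14 IGF system probes on each of the 8 arrays, by group; lines are group means and open points are not well above background. Both dying arrays lie above the surviving and sham arrays for Igf1 probe A_44_P366723, and above all other arrays for Igfbp6.

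Igf1 was read by 4 probes. The brightest, A_44_P366723, lay at 6.43 and 4.75 in dying, 2.95 and 3.27 in surviving, 3.30 and 4.06 in sham and 4.20 and 4.86 in naïve neurons. Both dying arrays were above both surviving and both sham arrays, while dying replicate 2 lay between the naïve replicates. A_44_P126021 lay at 2.45 and 1.36 in dying, 1.01 and 0.60 in surviving, 0.35 and 0.93 in sham and 1.17 and 2.31 in naïve neurons. Its dying arrays were also above its surviving and sham arrays. A_44_P421502, spotted 10 times, lay at 2.07 and 1.12 in dying and 1.10 and 1.09 in surviving neurons and was not well above background in naïve or sham, where it read between -2.52 and -1.80. Both injured groups were thus above both control groups for this probe, and dying replicate 2 was close to the surviving pair. A_44_P421499 lay at -0.27 and -0.53 in surviving neurons and at -0.01 on dying replicate 2, and was not well above background on dying replicate 1, at -2.97, or on any control array.

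Surviving neurons lay below dying neurons for 3 of the 4 Igf1 probes, and the fourth, A_44_P421499, rested on a dying array not well above background. The difference, surviving minus dying, was -2.49 ± 0.64 (SE, 95% interval -3.97 to -1.0) for A_44_P366723, with an adjusted p of 0.122 by limma, and -1.65 without dying replicate 1. It was -1.10 for A_44_P126021 (adjusted p = 0.321) and -0.50 for A_44_P421502 (adjusted p = 0.601), and without dying replicate 1 these became -0.56 and -0.03. A_44_P421499 gave 1.09 (adjusted p = 0.489), which turned to -0.38 without that array. None of the 4 passed the threshold of 0.05.

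Igf2 lay at 6.90 and 6.54 in dying, 6.22 and 4.77 in surviving, 5.41 and 6.76 in sham and 4.61 and 7.04 in naïve neurons. Its replicates differed by more than 1 log2 unit in naïve, sham and surviving neurons, and the range of the dying arrays lay within that of naïve. Surviving minus dying was -1.23 ± 0.89 (SE, 95% interval -3.29 to 0.83; adjusted p = 0.457), and -1.05 without dying replicate 1. It was -1.95 without surviving replicate 1 and -0.50 without surviving replicate 2. The 4 groups could not be ordered beyond the spread of their replicates.

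Igf2, Igfbp2 and Igfbp6 differed most between the naïve replicates, each by more than 2 log2 units, with replicate 2 higher, as it also was in sham. Replicate 2 minus replicate 1 was 2.43 in naïve and 1.35 in sham for Igf2, 2.30 and 0.98 for Igfbp2, and 3.1 and 0.59 for Igfbp6. The brighter Igf1 probes differed in the same direction, by 0.66 and 0.76 for A_44_P366723 and by 1.13 and 0.58 for A_44_P126021. Over 15250 probes that were bright enough on all 8 arrays to be well above background, the median of this difference was 0.56 in naïve (SD 0.69), -0.24 in sham (SD 0.48), -0.14 in surviving (SD 0.59) and -0.22 in dying pools (SD 1.21). Among surviving pools Igf2, Igfbp2 and Igfbp6 did not share a direction, at -1.45, -0.00 and 0.55. Among dying pools all 3 were below 0, at -0.36, -0.89 and -1.76, as were Igf1 A_44_P366723 at -1.68 and A_44_P126021 at -1.09.

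Markers of the meninges and of fibroblasts were read beside them. Of 8 listed genes, 6 exceeded background clearly on all arrays and Lum on none. The summed signal was 2983 and 1507 in dying, 667 and 282 in surviving, 648 and 1132 in sham and 307 and 1618 in naïve neurons, most of it from the probe of Ptgds, a prostaglandin synthase of the leptomeninges. Between dying and sham neurons 0 of 6 tested passed, where 44.1% of all probes did. In each group the replicate with the higher sum was also the one with the higher Igf2, but single markers did not all follow. In naïve neurons Col1a1 and Col3a1 differed in the other direction, by -1.29 and -0.60. In surviving neurons Slc6a13, Dcn and Col1a1 did, by 2.39, 2.29 and 0.25, while Ptgds, Col1a2, Col3a1 and Ogn differed as Igf2 did. In dying neurons Dcn did, by 1.76, from a replicate not well above background. Of the choroid plexus markers Kcne2, Clic6 and Prlr were well above background on no array, while Ttr lay at 10.81 on sham replicate 2 and 1.34 on sham replicate 1, and the summed signal of the list was 23.2 and 457 in dying, 417 and 25.8 in surviving, 4.45 and 1801 in sham and 2.31 and 1.42 in naïve neurons. Of this list 1 of 3 tested rose against sham in either injured group, where 44.1% of all probes were called in dying and 18.9% in surviving neurons. This was Aqp1, at 2.06 in dying (adjusted p = 0.00758) and 2.07 in surviving neurons (adjusted p = 0.0184), while Ttr and Folr1 did not pass. Aqp1 was not well above background on sham replicate 1. The part of either tissue in the Igf2, Igfbp2 and Igfbp6 signals was not tested.

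**Figure D3:**
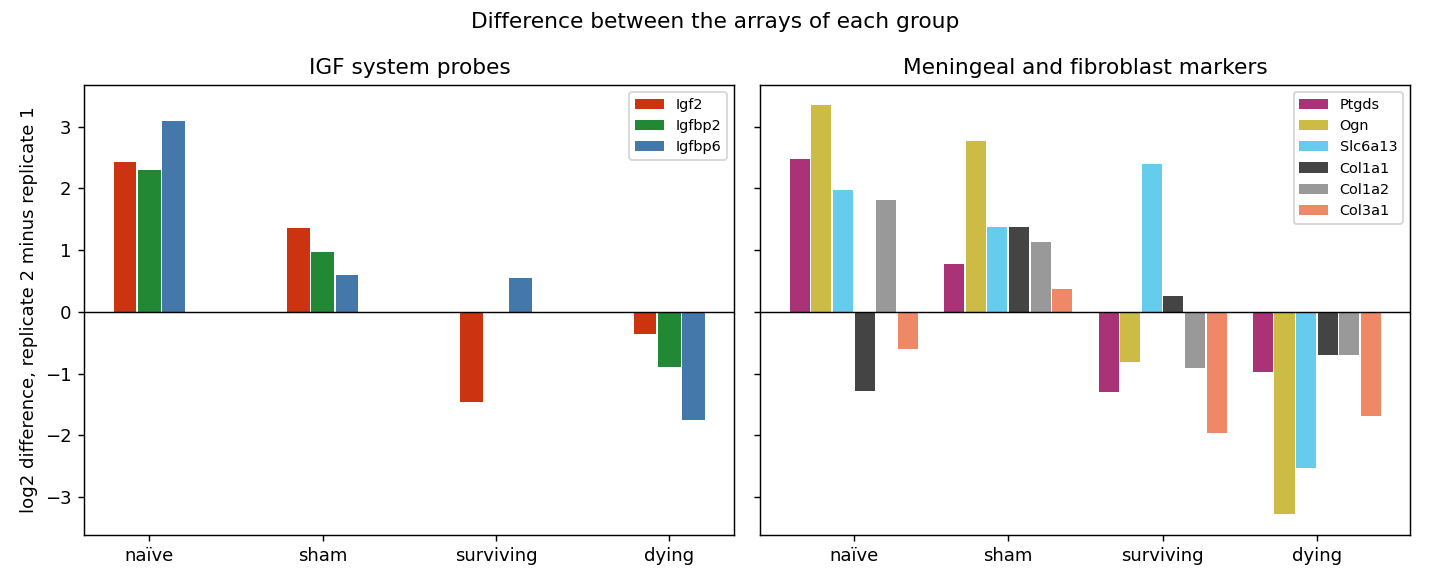
Replicate 2 minus replicate 1 in log2 signal within each group, for Igf2, Igfbp2, Igfbp6 and the 6 markers of meninges and fibroblasts well above background on all 8 arrays. In naïve and sham pools the 3 members are above 0 together, and in dying pools they are below 0 together.

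The promoters of Igf2, Igfbp2 and Igfbp6 are shown because these genes differed most between the naïve replicates, a choice made after their values were seen. The 100 bases before each annotated start were read from RefSeq promoters on the rat build GRCr8, in which all 8 members were found. Igf2 has 2 starts, at chr1:207250476-207250575 and chr1:207253981-207254080 on the minus strand. Igfbp2 lies at chr9:81864711-81864810 and Igfbp6 at chr7:135154819-135154918, both on the plus strand. Each is written 5′ to 3′, and capitals mark a GC box, GGGCGG searched on both strands.
Igf2, chr1:207250476-207250575: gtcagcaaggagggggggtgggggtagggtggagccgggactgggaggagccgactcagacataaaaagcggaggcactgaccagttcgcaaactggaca
Igf2, chr1:207253981-207254080: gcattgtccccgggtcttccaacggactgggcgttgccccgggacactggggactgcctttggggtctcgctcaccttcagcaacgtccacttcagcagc
Igfbp2: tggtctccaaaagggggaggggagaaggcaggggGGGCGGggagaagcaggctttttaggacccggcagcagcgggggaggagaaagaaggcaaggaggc
Igfbp6: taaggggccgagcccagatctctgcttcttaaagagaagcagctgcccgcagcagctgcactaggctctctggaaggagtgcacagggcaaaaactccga
The GC box was found in Igfbp2 alone among these windows, and in 21.6% of 33469 rat promoter windows of the same length. In windows of 250 bases it was also found in Igf2 and in Igf1r, in 3 of the 9 member promoters and 30.5% of all. The windows shown shared no GC box, and a match or its lack is a description of these letters only.

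The receptor Igf1r, read by a probe spotted 10 times, lay at 1.76 and 2.26 in dying, 3.02 and 2.68 in surviving, 3.22 and 3.0 in sham and 2.42 and 2.67 in naïve neurons. Both dying arrays were the lowest of the 8, and the surviving arrays fell within the range of the controls. The coefficient of variation over its 10 spots was between 5.78% and 29.6% by array. Surviving minus dying was 0.84 ± 0.44 (SE, 95% interval -0.18 to 1.86; adjusted p = 0.308), and 0.59 without dying replicate 1.

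Igfbp2, a carrier abundant in cerebrospinal fluid, lay at 2.84 and 1.95 in dying, 2.26 and 2.26 in surviving, -0.01 and 0.97 in sham and -0.49 and 1.81 in naïve neurons. All 4 injured arrays were above all 4 control arrays, and the surviving pair lay within the dying pair. Surviving minus dying was -0.14 ± 0.78 (SE; adjusted p = 0.94), and 0.31 without dying replicate 1.

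Igfbp3, the main carrier of IGFs in blood, was read by 2 probes. A_42_P627998 lay at 4.44 and 5.42 in dying, 6.02 and 5.87 in surviving, 5.05 and 4.40 in sham and 3.82 and 4.48 in naïve neurons. The surviving pair was the highest of the 8 arrays, and the dying pair overlapped sham. A_44_P180127, spotted 10 times, lay at 1.87 and 3.96 in dying, 4.93 and 4.48 in surviving, 4.03 and 3.59 in sham and 3.0 and 3.43 in naïve neurons. The surviving pair was again the highest, and dying replicate 1 the lowest of all arrays. Surviving minus dying was 1.01 ± 0.53 (SE; adjusted p = 0.308) and 1.79 ± 0.69 (SE, 95% interval 0.20 to 3.39; adjusted p = 0.194) for the probes, and 0.52 and 0.75 without dying replicate 1.

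Igfbp4, which inhibits IGF action and is cleaved by the protease Pappa, was read by 2 probes that went opposite ways. A_43_P16767 lay at 5.87 and 5.49 in dying, 4.20 and 3.36 in surviving, 5.46 and 5.52 in sham and 4.47 and 5.03 in naïve neurons. The surviving pair was the lowest of the 8 arrays and the dying pair overlapped sham. A_44_P515317 lay at -0.20 and -0.41 in dying, 0.65 and 0.42 in surviving, 0.17 and 0.33 in sham and 1.18 and 0.19 in naïve neurons, so that here the dying pair was the lowest. Surviving minus dying was -1.90 ± 0.49 (SE, 95% interval -3.03 to -0.77; adjusted p = 0.121) for A_43_P16767 and 0.84 (adjusted p = 0.353) for A_44_P515317. Without dying replicate 1 these were -1.71 and 0.94.

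Igfbp5, a neighbour of Igfbp2 in the rat genome, gave little signal. A_44_P264240 was well above background in naïve neurons alone, at -0.31 and 0.05, and read between -2.60 and -1.07 on the other 6 arrays. A_44_P285534 was well above background on no array. Neither probe met the filter for surviving against dying neurons, and 0 of the 14 passed without a filter. The study assigns to Igfbp5 a further probe, A_44_P463425, for an expressed sequence tag that the array design does not name so, and it is given here after its values were seen. It lay at 3.07 and 2.56 in naïve, 2.05 and 2.31 in sham and 2.43 and -0.20 in dying neurons, and was not well above background in surviving neurons, at -3.38 and -2.24. Dying was at least 8.46-fold above surviving (adjusted p = 0.111), a bound set against the lowest signal well above background on the surviving arrays or the signal of the probe where higher. It was at least 3.41-fold without dying replicate 1 and at least 21.0-fold without dying replicate 2. The probe entered these tests through its dying arrays alone, so they give no call. Sham was at least 17.7-fold above surviving, but the probe entered that test through its sham arrays alone, so no call is made.

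Igfbp6, a carrier that prefers Igf2, lay at 5.21 and 3.45 in dying, 0.78 and 1.33 in surviving, 1.15 and 1.74 in sham and 0.00 and 3.1 in naïve neurons. Both dying arrays were above the other 6, and naïve replicate 2 came closest to them. Surviving minus dying was -3.28 ± 1.0 (SE, 95% interval -5.60 to -0.96; adjusted p = 0.139), and -2.40 without dying replicate 1. The study chose Igfbp6 and the expressed sequence tag for its own gene lists on these same arrays, so their differences are not independent evidence. The same list of the study gives Igf1 as unchanged, without naming a probe. By PCR on smaller pools after severe injury, the study reports Igfbp3 as higher in surviving than in naïve neurons, a borderline difference. In those pools it found no significant difference between dying and surviving neurons.

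**Figure D4:**
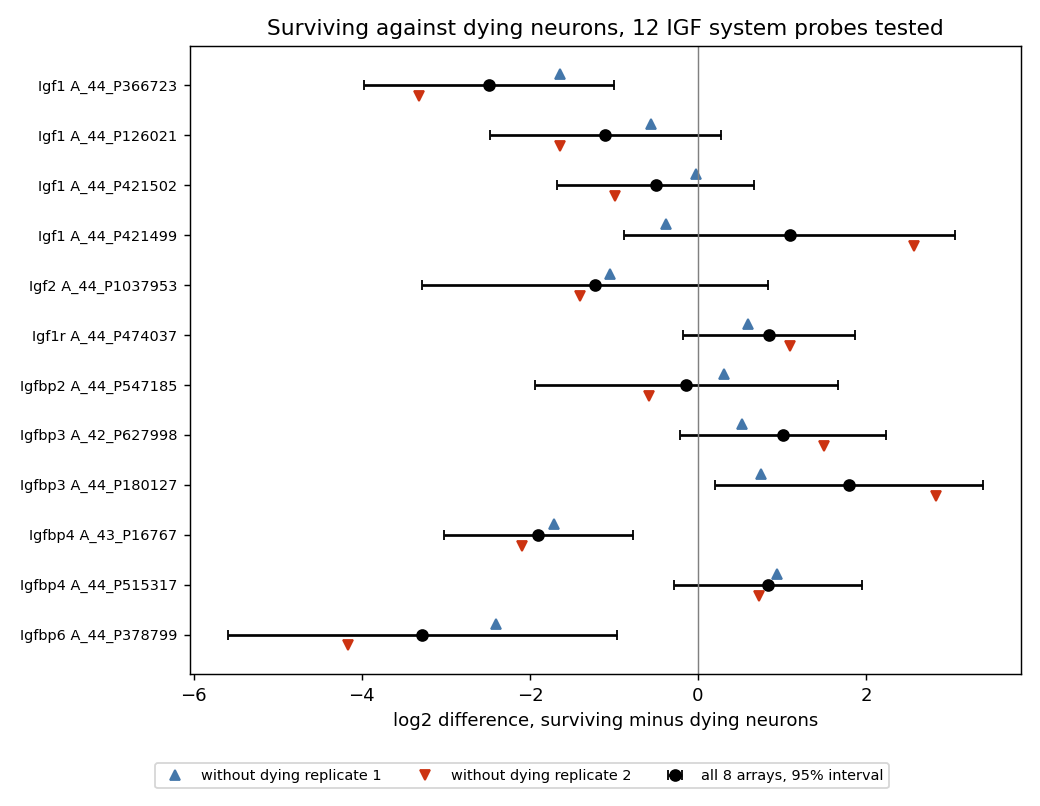
Log2 difference, surviving minus dying, for the 12 IGF system probes tested. Black points and bars give the estimate on all 8 arrays with its 95% interval, and triangles give it without either dying array; Igfbp6 lies lowest, at -3.28, and the triangle of Igf1 A_44_P421499 without dying replicate 2 rests on an array not well above background.

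Across the system, 0 of 12 probes differed past the threshold in limma when surviving and dying neurons were compared, and 0 of all 27389 probes tested did (0%). At an unadjusted p under 0.05 there were 4 of 12 and 5895 of 27389 (21.5%). Both dying arrays lay above both surviving arrays for 6 of 12 probes, against 21.8% of all probes, namely 3 of Igf1 and those of Igf2, Igfbp4 (A_43_P16767) and Igfbp6. Both surviving arrays lay above for 4 of 12, against 30.4%, namely Igf1r, both of Igfbp3 and the other of Igfbp4. The median difference was -0.32 over the member probes and 0.14 over all probes tested.

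The calls depended on which dying array was kept. Without dying replicate 1, 0 of 12 member probes and 0 of 29187 probes (0%) passed, with 4096 at an unadjusted p under 0.05. Without dying replicate 2, 4 of 12 and 5994 of 28207 (21.3%) passed, with the lone dying array assumed to vary like the other groups. Among these were Igf1 A_44_P366723 at -3.32, Igfbp3 A_44_P180127 at 2.84 and Igfbp4 A_43_P16767 at -2.09. Igf1 A_44_P421499 also passed, but it met the filter through its surviving arrays alone, as the dying array left was not well above background. Its bound was 1.94-fold, with surviving above dying, and it is not counted as a call.

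**Figure D5:**
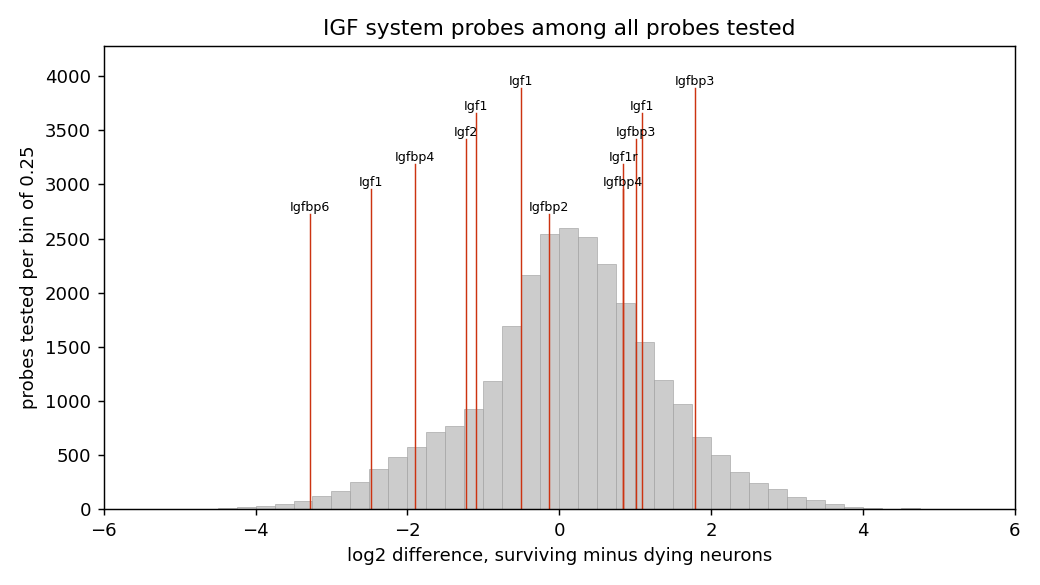
Number of probes by log2 difference, surviving minus dying, in bins 0.25 wide for all 27389 probes tested, with the 12 IGF system probes as vertical lines. The member lines fall on both sides of 0, with Igfbp6 farthest out on the side of dying neurons.

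Between dying and sham neurons 3 of 11 member probes passed, a lower share than the 11285 of all 25613 probes (44.1%). Igf1 A_44_P366723 rose by 1.91 (adjusted p = 0.0407), Igf1 A_44_P421502 by at least 3.53-fold (adjusted p = 0.0024) and Igfbp6 by 2.89 (adjusted p = 0.0451). The difference of Igf1 A_44_P126021 was 1.26 (adjusted p = 0.11). The values for Igf1r, -1.10 (adjusted p = 0.072), and Igfbp2, 1.92 (adjusted p = 0.0736), did not pass, and without dying replicate 1 they were -0.85 and 1.47. Without dying replicate 2 Igf1r was -1.35 (adjusted p = 0.0436). Without dying replicate 1 the differences of Igf1 A_44_P366723 and Igfbp6 were 1.08 (adjusted p = 0.189) and 2.01 (adjusted p = 0.239), both no longer past the threshold. Igf1 A_44_P421499 then entered the test through the 1 dying array left, at least 1.16-fold above sham, and is not counted as a call. These calls were also lost without sham replicate 1, at 1.53 and 2.59, and without sham replicate 2, at 2.30 and 3.18. Igf1 A_44_P421502 passed in each of these, by at least 2.54-fold without dying replicate 1, 3.34-fold without sham replicate 1 and 3.74-fold without sham replicate 2. It met the filter through its dying arrays alone, and it also passed without a filter (adjusted p = 0.00572). The p-values of this probe test its difference from sham readings not well above background, rather than the bound.

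Between surviving and sham neurons, 2 of 12 member probes passed, as did 5072 of 26885 (18.9%). Igf1 A_44_P421502 rose by at least 2.49-fold (adjusted p = 0.0103), and Igfbp4 A_43_P16767 fell by 1.71 (adjusted p = 0.0457). The former met the filter through its surviving arrays alone, and it also passed without a filter (adjusted p = 0.0177). Again its p-values test the difference from sham readings not well above background, rather than the bound. Igfbp3 A_42_P627998 differed by 1.22 (adjusted p = 0.134). Both calls were lost when any of the 4 arrays was left out. The bound for Igf1 A_44_P421502 was then at least 2.36-fold without sham replicate 1, 2.63-fold without sham replicate 2, 2.48-fold without surviving replicate 1 and 2.50-fold without surviving replicate 2. The difference of Igfbp4 A_43_P16767 was -1.74, -1.68, -2.13 and -1.29 in the same order. Whether a probe differed more from sham in dying than in surviving neurons is the comparison of surviving with dying neurons, in which no member passed.

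The 2 comparisons share the sham arrays, and both depend on scaling. The median of all probes tested lay at -0.46 in dying and -0.43 in surviving neurons against sham. Under the other scalings the median of all probes ran from -0.31 to 0.55 in dying and from -0.62 to 0.55 in surviving neurons. The 5 calls kept their sign under every scaling tried, with Igfbp4 between -1.90 and -0.67, Igf1 A_44_P366723 between 2.07 and 2.98 and Igfbp6 between 3.04 and 3.90. The call of Igf1 A_44_P366723 was lost with the replicate number as a block (adjusted p = 0.0533), as was that of Igfbp4 A_43_P16767 (adjusted p = 0.0765), although these numbers do not pair the arrays. Both were also lost without a filter on dim probes, as was that of Igfbp6 (adjusted p = 0.0682), Igf1 A_44_P366723 with the 4 arrays alone, and Igfbp4 with non-uniform spots kept (adjusted p = 0.053). Igfbp4 did not pass under the 75th percentile, quantile normalization, the median of probes well above background on all arrays or the series table. Igfbp3 A_42_P627998 passed under these same 4 settings, with surviving minus sham between 2.0 and 2.20. It also passed with the 4 arrays alone, at 1.22 (adjusted p = 0.0378). Of the dying differences, Igf1r ran from -0.94 to -0.09 under the other scalings, and Igfbp2 from 2.07 to 2.93, passing under the 75th percentile, the median of probes well above background on all arrays and the series table. With the normexp background correction 0 probes passed in either comparison.

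Markers of microglia and macrophages were read beside Igf1. List counts were made with median scaling alone, to which the shift of all probes given above applies. Of 9 genes, 7 were tested between dying and sham, 4 rose and 0 fell, where 44.1% of all probes were called, and the median difference was 1.89. Cd68, C1qa, C1qb and Tyrobp rose, while Aif1 lay at -0.14 (adjusted p = 0.83) and Csf1r at -0.34 (adjusted p = 0.642). Itgam did not pass (adjusted p = 0.105), and as it was not well above background in sham it entered through its dying arrays alone. Without dying replicate 1, 4 of 8 rose and 0 fell, where 27.2% of all probes were called. C1qb, a complement component, lay at 9.82 and 8.78 in dying, 6.57 and 7.03 in surviving, 6.34 and 6.06 in sham and 4.98 and 6.07 in naïve neurons. Of the 9, 2 and 1 were not well above background in dying, 1 and 0 in surviving and 3 on each sham and naïve array. Both naïve arrays lay above both sham arrays for Igf1 A_44_P366723, while the summed microglial signal was 127 and 253 in naïve and 264 and 242 in sham neurons. In surviving neurons, where Igf1 A_44_P421502 rose against sham, 0 of 8 microglial genes passed, where 18.9% of all probes did. Of the 8, 6 were above 0, against 38.9% of all probes. Among these Itgam and Cx3cr1 entered through their surviving arrays alone, and Cd68 lay at 1.79 (adjusted p = 0.0586). The part of microglia in the Igf1 difference was not tested.

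Other markers were read in the same way, where 44.1% of all probes were called between dying and sham neurons. Endothelial and mural markers, of which Tek was well above background on no array and Acta2 had no probe, summed to 538 and 207 in dying, 114 and 104 in surviving, 161 and 118 in sham and 107 and 149 in naïve neurons, with 2 of 9 tested higher in dying than in sham and 0 lower. Interneuron markers, of which the probe of Npy was brightest, summed to 2091 and 526 in dying, 539 and 484 in surviving, 764 and 913 in sham and 633 and 886 in naïve neurons, with 0 of 9 higher and 2 lower in dying than in sham. Astrocyte markers, of which that of Slc1a3 was brightest, summed to 1172 and 485 in dying, 436 and 488 in surviving, 1370 and 937 in sham and 830 and 931 in naïve neurons, with 0 of 7 higher and 2 lower in dying than in sham. Of the genes counted, Flt1 was not well above background in sham and Gad1 not in dying neurons, so each entered through the other group alone. The median difference, dying minus sham, was 1.53 over endothelial and mural, -0.39 over interneuron and -0.97 over astrocyte markers, and -0.46 over all probes. Leaving out dying replicate 1, these medians were 0.62, -1.30, -1.18 and -0.28. Between surviving and sham neurons, where 18.9% of all probes were called, 1 of 9 endothelial and mural markers was higher and 0 lower. Interneuron markers gave 0 of 9 higher and 2 lower, and astrocyte markers 0 of 7 higher and 2 lower. Flt1 again entered through its surviving and Gad1 through its sham arrays alone. The part of these cell types in the differences of the IGF genes was not tested.

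Sham and naïve neurons did not differ in any member past the threshold, with 0 of 11 member probes and 0 of 20650 (0%) in limma and 996 at an unadjusted p under 0.05. The median difference, sham minus naïve, was -0.11 over members and 0.37 over all probes tested. Igfbp5 A_44_P264240, well above background in naïve alone, gave at least 1.06-fold more in naïve than in sham (adjusted p = 0.883).

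Relatives of the members were read by name. Igf2r, which clears Igf2 from the cell surface, was well above background on all arrays, at 5.22 and 6.63 in dying, 6.80 and 6.49 in surviving, 4.66 and 5.30 in sham and 3.41 and 4.47 in naïve neurons, and surviving minus sham was 1.66 (adjusted p = 0.0974). For surviving minus dying neurons it was 0.72 (adjusted p = 0.542), and 0.01 without dying replicate 1. Igfbp1, beside Igfbp3 in the genome, lay between 2.09 and 3.27 on all arrays, and surviving minus dying was 0.09 (adjusted p = 0.936), and 0.01 without dying replicate 1. Igfals, which stabilizes IGF complexes in blood, was well above background on both surviving arrays, at -0.10 and 0.18, and on dying replicate 2, at -0.13. Surviving was at least 1.20-fold above sham for Igfals, which entered that test through its surviving arrays alone, so no call is made. Igfbp7 had no probe.

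Irs2, an adaptor that carries the signal from the receptor, was read from the brightest of its 4 probes and with median scaling alone. That probe was well above background throughout. It lay at 3.11 and 4.02 in dying, 3.51 and 3.85 in surviving, 6.29 and 6.13 in sham and 5.18 and 5.90 in naïve neurons. All 4 injured arrays were below all 4 control arrays. Against sham, Irs2 fell by 2.53 in surviving (adjusted p = 0.0177) and fell by 2.65 in dying neurons (adjusted p = 0.0059), and surviving minus dying was 0.12 (adjusted p = 0.922), or -0.34 without dying replicate 1. The call in surviving neurons was lost without any of the 4 arrays compared, with adjusted p from 0.1 to 0.136. That in dying neurons passed without dying replicate 1, at -2.19 (adjusted p = 0.0251), and was lost without sham replicate 1, at -2.56 (adjusted p = 0.0566). Irs1 and the insulin receptor Insr were well above background on 1 array each and Irs4 on none.

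The pathway lists gave 0 calls between surviving and dying neurons, as did all probes. Of the PI3 kinase and Akt pathway, 13 of 15 tested genes were above 0 in surviving minus dying, with a median of 0.38, and of the adaptors 5 of 6, with a median of 1.35, where 55.6% of all probes were above 0. Leaving out dying replicate 1, these were 8 of 16, with a median of -0.01, and 4 of 6, with a median of 0.32. The medians were -0.79 for 4 ligands, 0.84 for 3 receptors, -0.03 for 6 binding proteins, 0.10 for 3 genes of their proteases and inhibitors and -0.05 for 7 genes of the growth hormone axis. Leaving out dying replicate 1, they were -0.64, 0.59, 0.09 and -0.15, and 0.15 for 9 genes of the axis, so that the last 3 changed sign. Between dying and sham neurons, 2 of 14 PI3 kinase and Akt genes rose and 5 fell (median -1.32), 0 of 5 adaptors rose and 2 fell (median -2.48), and 2 of 6 growth hormone axis genes rose and 2 fell (median 1.06), where 44.1% of all probes were called. Without dying replicate 1 these were 1 rise and 3 falls of 15, 0 and 2 of 5, and 1 and 1 of 8, with medians of -0.28, -0.68 and 0.21, where 27.2% were called. Between surviving and sham neurons, where 18.9% of all probes were called, 0 of 15 PI3 kinase and Akt genes rose and 1 fell. Of the adaptors 0 of 6 rose and 1 fell, and of the growth hormone axis 1 of 7 rose and 0 fell. Among the genes counted, Pik3cb, higher in dying, and Ghrhr, higher in surviving neurons, were not well above background in sham. Socs2, lower in dying neurons, was not well above background there. Each entered its test through the other group alone. Eif4ebp1, higher in dying neurons, had no value on dying replicate 1 and rested on dying replicate 2.

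For each member well above background on all arrays, the named genes with the most similar signal over the 8 arrays were found among 6529 probes of 5591 genes. The arrays share their groups and slides, so r is a description. Igf1 was most like Fxyd6, Nme7 and Ltb (r of 0.953, 0.952 and 0.949). Igf2 was most like Pip5k2a, Ptgds and Neto2 (0.950, 0.927 and 0.909), of which Ptgds is the meningeal marker named above. Igf1r was most like Tarbp2, Slco3a1 and Tjp3 (0.992, 0.989 and 0.981). Igfbp2 was most like Sp110, Rbm35b and Rab11fip2 (0.971, 0.947 and 0.942), and Igfbp3 most like Olr1332, Slc13a2 and Olr1555 (0.972, 0.967 and 0.966). Igfbp4 was most like Ptprv, Rab31 and Kcnk2 (0.975, 0.953 and 0.949). Among the genes most like Igfbp6 were Tpm3 and Gng11 (0.968 and 0.968).

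The genes with the smallest p between surviving and dying neurons lay outside the IGF system. Upb1 and Zfp574 were at least 12.1-fold and 10.5-fold higher in surviving neurons, and Chrdl1 and Srd5a1 at least 4.41-fold and 11.2-fold higher in dying neurons, each with an adjusted p of 0.0728 and each not well above background in the other group. Leaving out dying replicate 1, the bounds were 15.5-fold, 13.4-fold, 5.64-fold and 9.99-fold. Without dying replicate 2 they were 9.46-fold, 8.16-fold, 3.44-fold and 12.6-fold. Each probe entered these tests only through the group where it was high, so no call is made.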

How the data were processed

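RNA of laser-captured CA3 neurons was measured on 8 single-colour Agilent rat arrays, 2 per group. The authors deposited processed, mean and background intensities of each spot, made with Agilent Feature Extraction by subtracting background without normalization between arrays. The deposited files also give marks of 0 or 1, a score for spots well above background or non-uniform. In their series table the authors deposited signal values, which are processed signals scaled by array, and these were used as an alternative.

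Non-uniform spots were left out (114 and 111 in dying, 50 and 35 in surviving, 15 and 8 in sham, 734 and 6 in naïve neurons). Saturation affected 0 spots. Spots of a probe were averaged, divided by the array median, set to at least 0.01 and taken to log2. With limma 3.58.1 in R 4.3.3, tested on simulated data, 1 model with a mean for each of the 4 groups was fitted over the 8 arrays. A probe was tested where both arrays of either group compared were well above background. Two-sided p-values were adjusted (Benjamini-Hochberg) over all probes tested in a comparison. Precision is limited by 2 arrays per group. Where a group was not well above background on any array, the fold is a lower bound against the lowest signal well above background on each of its arrays, or the probe's own where higher.

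Genes named were all members, fixed relatives and adaptors, listed markers, the 2 genes of smallest p in either direction when surviving were compared with dying neurons, and the 3 genes most like each member by Pearson's r. Differences against sham are given for member probes with an unadjusted p under 0.05 and for Igf1 A_44_P126021, chosen after seeing the data. List genes were read from their brightest probe. Some genes and 1 marker list that these rules name are not reported here. Members and lists were chosen with earlier results of these data known. Accessions of 12 of 14 member probes matched RefSeq. Alternatives were other scalings, normexp with an offset of 50, quantile normalization, other filters and floors, the series table, a replicate block, non-uniform spots kept, and leaving out each array.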

Additional observations from a re-analysis of the deposited data

How the results depend on the processing

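Of the recomputed counts, 96 stayed within 1.5 times the main count, 11 were higher and 23 lower. Of the recomputed differences of member probes, 295 kept their sign and side of the threshold, 13 passed newly, 30 no longer passed and 6 reversed. The causes were not tested, except that fewer arrays or probes were used where an array was left out or a filter was stricter.

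Between surviving and dying neurons, 2 probes passed with the series table, and 0 to 5994 probes and 0 to 4 member probes with an array left out. With normexp the difference was 0.21 for Igf1 A_44_P421502, -0.25 for Igf1 A_44_P421499, 0.17 for Igf2 and 0.73 for Igfbp2. With an array left out it ran from -0.38 to 2.57 for Igf1 A_44_P421499, the latter against an array not well above background, and from -0.59 to 0.31 for Igfbp2. The pass of Igf1 A_44_P421499 with an array left out is not counted as a call.

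Between surviving and sham neurons, where 5072 probes and 2 members passed, normexp gave 0 and 0, probes well above background on all 4 arrays 3105 and 1, and the 4 arrays alone 12161 and 5. Members passing were 1 without a filter and 1 with non-uniform spots kept. Leaving out an array gave 253 to 513 probes and 0 to 0 members.

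Between dying and sham neurons, where 11285 probes and 3 members passed, normexp gave 0 and 0, and the filter on all 4 arrays 7155 probes. Members passing were 5 with the 75th percentile, 6 with the median of probes above background on all 8 arrays, 5 with the series table and 1 without a filter. Leaving out an array gave 3046 to 13416 probes and 1 to 6 members. Between sham and naïve neurons, 1 probe passed with quantile normalization and 118 with the 4 arrays alone.

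The share of calls that were higher moved with scaling. Against sham it was 36.2% in surviving and 34.2% in dying neurons, 73.5% and 59.7% with the 75th percentile, 59.3% and 56.3% with quantile normalization, 80% and 68.6% with probes above background on all arrays, 25.6% and 39.3% with RefSeq probes and 75.3% and 63% with the series table.

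Replicate numbers did not pair the arrays, whose deviations correlated between -0.194 and 0.0715 across groups. With the replicate number as a block, 0 probes passed between surviving and dying neurons, 3487 with 1 member between surviving and sham, 10394 with 2 members between dying and sham and 0 between sham and naïve neurons. With the dying numbers crossed, chosen after seeing the data, 0 passed between surviving and dying neurons.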
